A study of Mus musculus with 2 samples.

Results

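The regions described here are open chromatin regions of the newborn mouse adrenal gland that lie inside genes, in introns, a short way from a transcription start site (TSS). A region was a member if it was a peak of replicate 2 that a peak of replicate 1 overlapped, if its centre was over 1 kb and up to 10 kb from the nearest TSS of GENCODE release M21, and if that centre was inside a gene and in no exon. Of 38180 shared peaks on chromosomes 1 to 19, 4156 were members (10.9%). The members were chosen by peak calls, so that their signal is given as a description and no test was made on it.

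DNase I accessibility was measured in adrenal glands taken at 4 days of age from female mice of the strain B6CASTF1/J, in 2 libraries that the labels call biological replicates 1 and 2 of 1 group. B6CASTF1/J mice are first-generation hybrids of a C57BL/6J and a CAST/EiJ parent. Alleles were not separated, and reads of both parental genomes were placed on the C57BL/6J reference. Each sample is described as 3 females under a shared donor label, which does not say whether the animals were pooled or the libraries came from different animals, and the spread between them may be technical. In whole tissue, fewer cells of a type and less accessible chromatin per cell cannot be told apart.

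DNase I cuts DNA where nucleosomes are displaced, and a short stretch spared from cutting inside such a region is called a footprint, because a bound protein can shield it. Introns near promoters are known to hold enhancers, alternative promoters and sites of CTCF, the zinc finger protein that anchors chromatin loops and insulates domains. The adrenal gland joins a steroid-making cortex, governed by the nuclear receptor NR5A1 and by corticotropin acting through cAMP, to a medulla of chromaffin cells that make catecholamines.

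The sequences below carry the main findings on motif content. Coordinates are 1-based on GRCm38.p6, the build of mm10, the bases were read from the RefSeq assembly, and capitals mark the motif match unless said otherwise. The CTCF motif was the motif with the largest gap between members and random intronic windows, and its matches were the ones most often covered by footprints. Shown are the 5 strongest members with a CTCF match under a footprint in both libraries, each read 5′ to 3′ on the strand of the match.
Tmprss6, chr15:78447795-78447836, + strand: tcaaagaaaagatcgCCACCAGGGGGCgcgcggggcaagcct
Gm14226, chr2:155019910-155019951, - strand: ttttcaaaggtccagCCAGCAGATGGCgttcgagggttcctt
Gm4681, chr14:120138030-120138071, + strand: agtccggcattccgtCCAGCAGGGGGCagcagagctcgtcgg
Gm31166, chr19:5529497-5529538, + strand: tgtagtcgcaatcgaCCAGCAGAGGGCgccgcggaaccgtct
Lhpp, chr7:132656767-132656808, + strand: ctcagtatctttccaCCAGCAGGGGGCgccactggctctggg

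Nuclear factor I (NFI) proteins bind as dimers to a palindrome with a spacer in its middle. The 5 strongest members with the full palindrome under a footprint in both libraries are shown because this motif came next after CTCF.
Rap1gap2, chr11:74409022-74409066, + strand: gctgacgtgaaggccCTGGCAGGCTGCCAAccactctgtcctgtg
Arid3b, chr9:57831526-57831570, + strand: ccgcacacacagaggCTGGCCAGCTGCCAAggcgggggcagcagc
Kat2b, chr17:53587214-53587258, + strand: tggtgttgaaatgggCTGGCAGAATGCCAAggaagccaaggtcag
1700029H14Rik, chr8:13551254-13551298, + strand: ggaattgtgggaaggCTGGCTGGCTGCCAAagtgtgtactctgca
Zswim6, chr13:107831431-107831475, + strand: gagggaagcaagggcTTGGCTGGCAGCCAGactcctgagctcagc

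The Kat2b member is shown at greater length because it held the strongest NR5A match under footprints of both libraries. Capitals mark, in order, the NFI palindrome, the NR5A motif CAAGGTCA and the AP-1 motif TGAGTCA. The NFI and NR5A matches lay under footprints in both libraries, and the AP-1 match lay under none. KAT2B is a histone acetyltransferase.
Kat2b, chr17:53587197-53587316, + strand: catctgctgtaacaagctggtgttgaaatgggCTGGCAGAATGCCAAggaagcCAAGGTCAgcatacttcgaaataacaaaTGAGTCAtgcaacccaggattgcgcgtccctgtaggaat

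Cyclic AMP response elements (CRE, TGACGTCA) are the sites of CREB family factors, and 5 members held one under footprints of both libraries. All 5 are shown.
Mxi1, chr19:53314315-53314352, + strand: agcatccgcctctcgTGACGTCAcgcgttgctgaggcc
Ppp2r3d, chr9:124425629-124425666, + strand: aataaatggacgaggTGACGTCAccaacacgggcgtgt
Kctd15, chr7:34647255-34647292, + strand: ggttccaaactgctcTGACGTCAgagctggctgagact
9330179D12Rik, chr6:127155042-127155079, + strand: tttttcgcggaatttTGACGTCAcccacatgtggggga
Pdzd2, chr15:12491204-12491241, + strand: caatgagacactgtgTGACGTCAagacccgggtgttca

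NR5A matches under footprints of both libraries occurred in 7 members, and the 5 strongest are shown, Kat2b among them.
Kat2b, chr17:53587235-53587272, + strand: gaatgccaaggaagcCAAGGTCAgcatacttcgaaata
Fbxo34, chr14:47459720-47459757, - strand: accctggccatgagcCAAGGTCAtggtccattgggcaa
Zfp827, chr8:79031102-79031139, - strand: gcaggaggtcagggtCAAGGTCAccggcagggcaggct
Myo1a, chr10:127707866-127707903, + strand: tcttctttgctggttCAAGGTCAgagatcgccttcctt
S100a6, chr3:90623574-90623611, + strand: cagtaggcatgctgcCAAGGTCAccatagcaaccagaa

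Members in 3 core clock genes are shown because they were among the strongest members or the strongest of their list. Per1, in which capitals mark a glucocorticoid response element palindrome and then a CRE, encodes a repressor of the clock. Nr1d1 encodes the heme-binding repressor REV-ERBα, and Cry2 encodes another clock repressor. In the Nr1d1 and Cry2 windows capitals mark the E-box CACGTG, the site of CLOCK and BMAL1.
Per1, chr11:69097011-69097210, + strand: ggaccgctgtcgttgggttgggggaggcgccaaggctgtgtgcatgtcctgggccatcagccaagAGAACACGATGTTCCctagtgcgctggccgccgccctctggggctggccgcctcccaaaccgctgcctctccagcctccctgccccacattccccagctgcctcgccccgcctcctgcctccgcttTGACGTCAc
Nr1d1, chr11:98773841-98774040, + strand: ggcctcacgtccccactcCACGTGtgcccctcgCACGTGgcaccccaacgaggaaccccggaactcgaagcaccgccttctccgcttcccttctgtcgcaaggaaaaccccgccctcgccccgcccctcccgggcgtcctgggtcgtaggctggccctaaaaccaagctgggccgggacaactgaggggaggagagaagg
Cry2, chr2:92423841-92424040, + strand: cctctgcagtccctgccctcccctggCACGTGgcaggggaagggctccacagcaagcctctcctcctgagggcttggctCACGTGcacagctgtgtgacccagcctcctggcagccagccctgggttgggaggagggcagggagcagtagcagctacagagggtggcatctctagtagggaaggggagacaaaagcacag

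Repeated matches of the YY1 motif AAGATGGCG stood out in 2 host genes after the values were seen. Peg3 is an imprinted gene expressed from the paternal allele, and Yy1 encodes the zinc finger protein YY1 itself. All 7 matches in the Peg3 members lay on the + strand.
Peg3, chr7:6727408-6727446, + strand: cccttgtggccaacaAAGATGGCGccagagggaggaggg
Peg3, chr7:6727830-6727868, + strand: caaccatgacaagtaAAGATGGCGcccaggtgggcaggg
Peg3, chr7:6727949-6727987, + strand: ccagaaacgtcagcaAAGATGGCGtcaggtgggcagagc
Peg3, chr7:6728387-6728425, + strand: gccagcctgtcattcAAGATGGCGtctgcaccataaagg
Peg3, chr7:6728436-6728474, + strand: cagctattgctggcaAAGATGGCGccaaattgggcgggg
Peg3, chr7:6728724-6728762, + strand: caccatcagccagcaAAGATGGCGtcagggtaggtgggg
Peg3, chr7:6728865-6728903, + strand: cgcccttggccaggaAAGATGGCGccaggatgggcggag
Yy1, chr12:108794155-108794193, - strand: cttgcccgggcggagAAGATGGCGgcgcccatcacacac
Yy1, chr12:108794193-108794231, + strand: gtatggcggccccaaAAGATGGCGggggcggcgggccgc
Yy1, chr12:108794218-108794256, + strand: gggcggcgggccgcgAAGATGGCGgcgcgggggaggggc

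In the deposited signal, the authors' own value per peak, the members reached a median of 0.908 in replicate 1 and 2.02 in replicate 2. The middle 50% of members lay between 0.691 and 1.26 in replicate 1 and between 1.29 and 3.24 in replicate 2. Shared peaks within 1 kb of a TSS had medians of 1.40 and 2.64 in the same libraries. Intronic shared peaks farther than 10 kb from a TSS had medians of 0.785 and 1.79, and shared peaks outside genes at 1 to 10 kb had medians of 1.01 and 2.36. The members thus lay below the peaks at TSSs in both libraries and near the other distal classes. How the signal was scaled is unknown, and 97.4% of members had the higher value in replicate 2. Across members the signal of the libraries correlated with a Spearman rho of 0.817, a description over regions that share their libraries. The members had a median width of 180 bp, against 220 bp for peaks within 1 kb of a TSS.

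The strongest member lay in the first intron of Il31ra, which encodes a receptor subunit for interleukin 31. It reached 20.4 in replicate 1 and 31.4 in replicate 2, the highest signal of all members in both libraries, although the promoter of Il31ra had no peak in both libraries. For Nr1d1 the values were 4.52 in replicate 1 and 13.0 in replicate 2, and for Per1 3.82 and 9.90. The member in Mnt, which encodes a repressor of the MAX network, had 4.33 and 11.8. That in Mxi1, another MAX-binding repressor, had 4.42 and 9.98 and held a CRE under footprints of both libraries. A member in Tmem189, 3584 bp upstream of the TSS of Cebpb, had 3.71 and 10.8. Cebpb encodes a basic leucine zipper factor. The member in Dync1li2, a dynein light intermediate chain gene, had 3.81 and 10.6, and that in the antisense gene Gm10069 had 3.92 and 13.1. The strongest member inside the long gene Gm20388 had 4.45 and 11.3. All 10 ranked among the first 18 members in both libraries.

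The member in Aida, a gene for an axin-interacting protein, was the exception in direction, with 11.4 in replicate 1 and 10.5 in replicate 2. In all, 109 members (2.62%) had the higher signal in replicate 1. Repeat-masked sequence covered over 50% of the window in 13.8% of them, against 2.74% of the remaining members. Sfi1, a centrin-binding protein gene, held 10 of the 109. These members are drawn in the plot of signal in the 2 libraries.

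**Figure D1:**
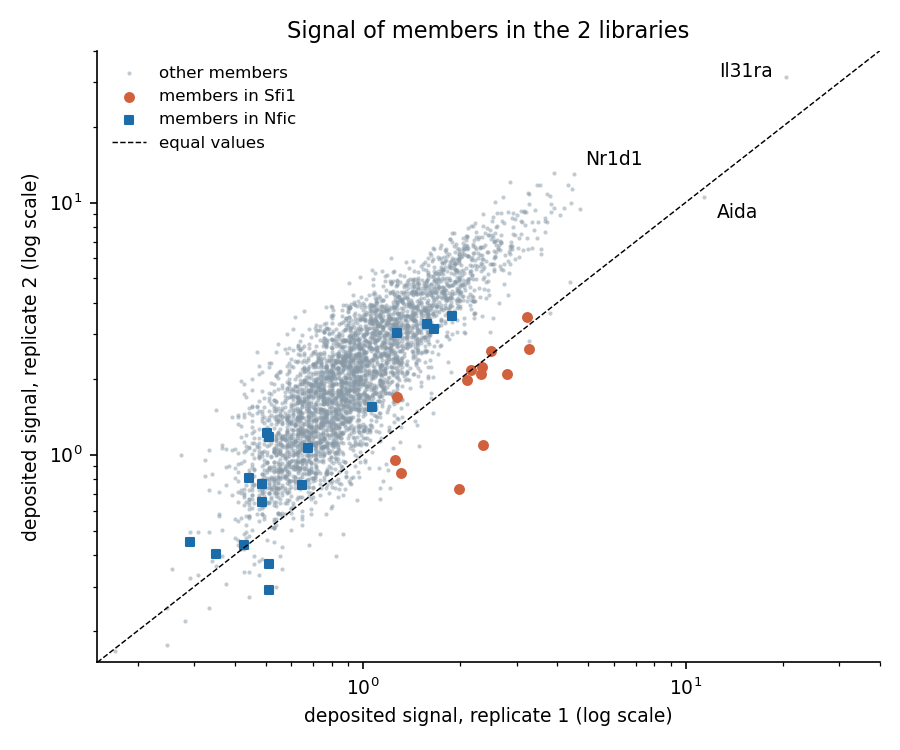
Deposited signal of each of the 4156 members in replicate 1 (horizontal, log scale) and replicate 2 (vertical, log scale), with the dashed line at equal values. Most members lie above the line, the Sfi1 members lie on or near it or below it, the Nfic members reach down to the weakest values, and Il31ra stands apart with 20.4 and 31.4.

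The members were densest close to TSSs. Per Mb of intronic sequence at the same distance there were 16.1 members at 1 to 2 kb, 11.7 at 2 to 3 kb and 9.33 at 3 to 4 kb. From 4 kb on, the density moved between 9.11 and 7.70 members per Mb. Over the whole range it was 10.3 members per Mb in 403 Mb. Over the 1 kb steps the median signal lay between 0.861 and 0.947 in replicate 1 and between 1.81 and 2.16 in replicate 2. By chromosome the density was highest on chromosome 11, at 15.2 members per Mb, and lowest on chromosome 13, at 7.2.

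At the edges of the rule, the 378 members in the first 250 bp beyond 1 kb had median signals of 0.925 in replicate 1 and 1.79 in replicate 2, and the 530 intronic peaks in the last 250 bp before it had 0.895 and 1.55. Members at 9 to 10 kb had medians of 0.895 and 2.01, and intronic peaks at 10 to 11 kb had 0.90 and 2.18. The member closest to the inner limit lay 1001 bp from a TSS in Pitpnm1, and the closest intronic peak outside it lay at 999 bp in Anp32b. Footprints overlapped 77.2% of the members in the first 250 bp beyond 1 kb in replicate 1 and 89.2% in replicate 2, against 72.8% and 79.4% of the intronic peaks just before 1 kb. At the outer limit the shares were 86.7% and 96% inside and 88.3% and 97.2% outside.

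**Figure D2:**
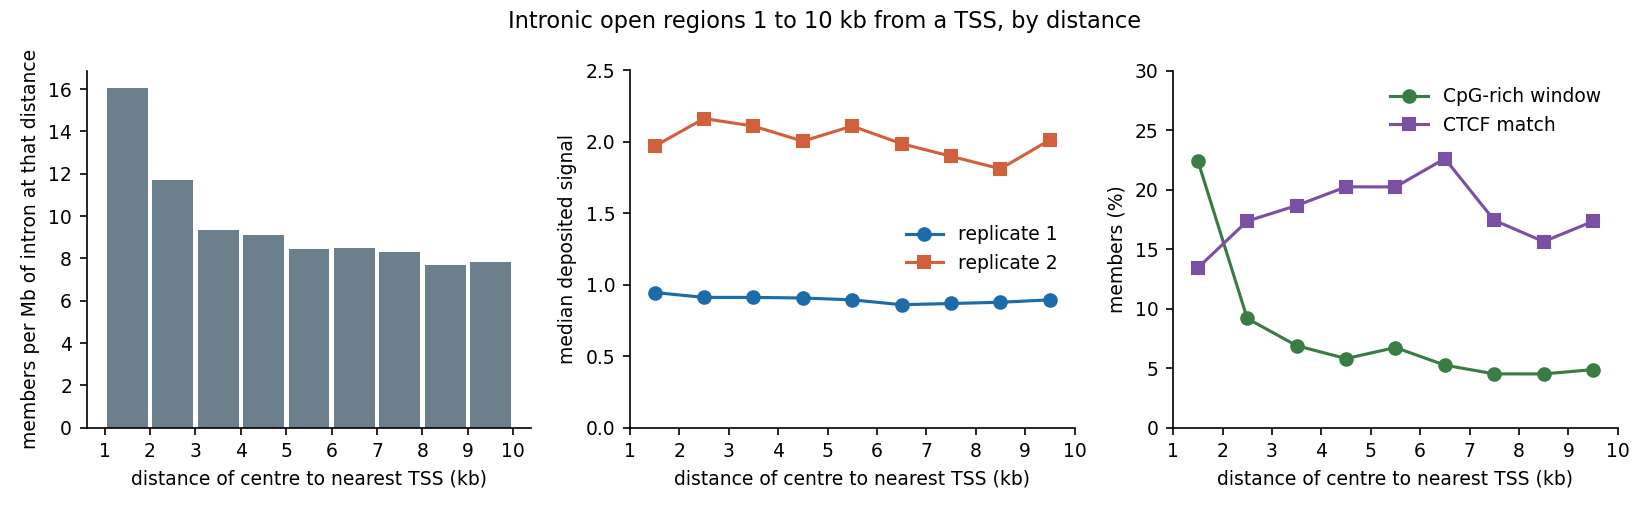
Members by distance of their centre to the nearest TSS (kb). Left, members per Mb of intronic sequence at that distance, 16.1 at 1 to 2 kb and 7.84 at 9 to 10 kb; middle, median deposited signal in replicate 1 (circles) and replicate 2 (squares); right, the percentage of members with a CpG-rich window (circles), which is 22.4% at 1 to 2 kb and 4.89% at 9 to 10 kb, and with a CTCF match (squares).

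In base composition the members stood between random introns and promoters. The 200 bp windows around member centres had a median GC content of 54.0%, against 43.5% in windows at random intronic positions drawn at the same distances from a TSS and 66% at shared peaks within 1 kb of a TSS. Windows with at least 50% GC and an observed over expected CpG ratio of at least 0.6 made up 10.7% of members, 0.597% of random windows and 75.1% of the peaks within 1 kb. These CpG-rich members, 446 in number, lay close to TSSs, at a median distance of 1730 bp against 3778 bp for the other members. Of them, 74.4% lay in a first intron. Repeat-masked sequence filled over 50% of the window in 3.03% of members and in 22.2% of random windows. Only 0.188% of the random positions lay in a peak of both libraries.

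Footprints were frequent in members. A footprint of the same library overlapped 86.2% of members in replicate 1 and 94.0% in replicate 2. The windows at random intronic positions held one in 0.279% and 0.654% of cases. Peaks within 1 kb of a TSS had footprints in 81.7% and 83.9% of cases in the same libraries, and intronic peaks beyond 10 kb in 85.3% and 93.4%. In 71.0% of members a footprint of one library overlapped a footprint of the other. Of 7026 replicate 1 footprints in members, 64.9% were overlapped by a replicate 2 footprint, and of 8712 in replicate 2, 49.4% by one of replicate 1. Footprints were called on the same cuts that made the peaks, so their presence in members is a description.

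The member with the most footprints in the library with fewer was in Peg3, with 7 in replicate 1 and 9 in replicate 2 over 660 bp. Another Peg3 member had 7 and 6 over 640 bp. The remaining Peg3 member lay inside the 660 bp region, with 3 and 4 footprints. Their signals were modest, 0.827 and 1.5 for the 660 bp region, and 1.36 and 2.30 for the 640 bp region, in replicates 1 and 2. These Peg3 regions held, in that order, 3 and 4 matches of the YY1 motif shown above. Only 3 of the 4156 members held 3 or more such matches over the peak, and the remaining one was the Yy1 member, with 3. Its signal values were 1.48 in replicate 1 and 2.74 in replicate 2, and it lay 1258 bp from a TSS, in the first intron. Of the 7 Peg3 matches, 2 lay under a footprint of replicate 1 and 0 under one of replicate 2. Of the 3 Yy1 matches, 1 lay under a footprint of replicate 2. The Mxi1 member had 5 and 7 footprints. A member in Gm43647, wholly repeat-masked, had 6 in each library, and its signal of 4.38 ranked 7 in replicate 1 and its 4.83 ranked 366 in replicate 2.

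Of 32 motifs searched, CTCF had the largest ratio of members to random intron. A CTCF match occurred in 17.3% of member windows (720 of 4156, Wilson 95% interval 16.2% to 18.5%), against 0.125% of random windows at the same distance and 0.282% of random windows matched on GC as well. The share was 2.22% at peaks within 1 kb of a TSS, 18.6% at intronic peaks beyond 10 kb and 19.4% at peaks outside genes at 1 to 10 kb. The members' share was thus near that of the other distal classes and above that of promoters. Intervals cover counting error only, and neighbouring regions are not independent. With up to 1 mismatch, a setting chosen after the data were seen, CTCF matches occurred in 43.9% of member windows, 2.01% of random windows and 3.09% of those matched on GC.

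CTCF matches lay near peak centres and inside footprints. Of 731 matches in members, 97.7% lay within 50 bp of the centre of the peak and 88.8% within 25 bp. They lay wholly inside a footprint widened by 5 bp on either side in 81.8% of cases in replicate 1 and 92.7% in replicate 2. Widened footprints covered 18.8% and 24.7% of all window bases in the same libraries, counted base by base, which is no expected value for whole matches. The footprints over CTCF matches had a median width of 24 bp in replicate 1 and 28 bp in replicate 2, while those over AP-1 matches had 9.50 and 9 bp. Of the CTCF matches, 49.0% lay on the strand of the host gene, close to an even split.

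Members with a CTCF match had a median signal of 1.07 in replicate 1 and 2.90 in replicate 2, against 0.878 and 1.86 for members without one. The share with a CTCF match was 27.3% in the strongest 25% of members, then 19.5%, 14.7% and 7.70% in the weakest 25%. Among the 100 strongest members 30 held a match, and among the 100 weakest 3 did. The match was less frequent in first introns, at 12.9%, than in later introns, at 22.4%, and it occurred in 4.04% of CpG-rich members. The strongest member with a match under footprints of both libraries was in Tmprss6, with 3.45 in replicate 1 and 11.7 in replicate 2. TMPRSS6 is a serine protease of iron regulation in liver. The members in Gm14226, Gm4681, Gm31166 and Lhpp followed, with 3.15 to 3.73 in replicate 1 and 8.41 to 11 in replicate 2.

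NFI was the next motif. The full palindrome occurred in 2.96% of member windows (2.49% to 3.52%), 0.130% of random windows and 0.282% of those matched on GC. It occurred in 0.568% of peaks within 1 kb, 2.99% of intronic peaks beyond 10 kb and 1.53% of peaks outside genes at 1 to 10 kb. Of 126 matches, 57.9% lay under a footprint in replicate 1 and 70.6% in replicate 2, and 89.7% lay within 50 bp of the centre. Unlike CTCF, the NFI motif did not go with strong signal. Members with it had medians of 0.870 and 1.71, against 0.913 and 2.03 without. The strongest was in Rap1gap2, a GTPase-activating protein gene, with 3.23 in replicate 1 and 7.22 in replicate 2. Arid3b, a DNA-binding protein gene, followed with 2.88 and 6.95. Only 3 members held both a CTCF and an NFI match.

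The REST motif TTCAGCACC, part of the site of the repressor of neuronal genes in non-neural cells, occurred in 0.938% of members, 0.173% of random windows, 0.267% of those matched on GC and 0.722% of peaks within 1 kb. Intronic peaks beyond 10 kb held the REST motif in 1.36% of cases, and peaks outside genes at 1 to 10 kb in 0.969%. The 40 REST matches in members were under footprints in 62.5% of cases in replicate 1 and 70.0% in replicate 2. The strongest of the 24 members with a match under footprints of both were in App, which encodes the amyloid precursor protein, and in Phf21b. App had 1.64 in replicate 1 and 4.42 in replicate 2, and Phf21b had 1.98 and 4.11. Scn8a, a voltage-gated sodium channel gene, was the seventh, with 1.86 and 3.52. These hosts were named after their values were seen.

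The AP-1 and NR5A motifs were less often under footprints than the CTCF, full NFI and REST motifs. AP-1 (TGAGTCA), the site of FOS and JUN dimers, occurred in 7.48% of members (6.72% to 8.32%), 3.39% of random windows and 2.25% of peaks within 1 kb. The NR5A motif occurred in 2.53% of members (2.09% to 3.05%), 1.32% of random windows and 0.703% of peaks within 1 kb. Intronic peaks beyond 10 kb held AP-1 in 7.99% and NR5A in 2.84% of cases. Peaks outside genes at 1 to 10 kb held them in 6.05% and 1.79%, so the members were near the other distal classes. Matched on GC, random windows held AP-1 in 3.23% and NR5A in 1.63% of cases. Of the AP-1 matches, 10.1% lay under a footprint in replicate 1 and 15.1% in replicate 2. Of the NR5A matches, 10.3% and 23.4% did. Over the 25 motifs with at least 20 matches in members, the median share under a footprint was 13.1% in replicate 1 and 19.6% in replicate 2. AP-1 lay below it in both libraries, and NR5A lay below it in replicate 1 and above it in replicate 2. Both motifs were more frequent in weaker members. By steps of 25% of members, strongest to weakest, AP-1 occurred in 5.77%, 6.64%, 7.89% and 9.62%, and NR5A in 1.25%, 2.41%, 2.89% and 3.56%.

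The strongest member with an AP-1 match under footprints of both libraries was in Selenon, a selenoprotein gene, with 3.54 in replicate 1 and 11.7 in replicate 2. The NR5A example, Kat2b, had 2.51 and 5.68. The CRE occurred in 0.529% of members (22 windows), 0.0722% of random windows and 0.133% of those matched on GC, against 2.28% of peaks within 1 kb. Intronic peaks beyond 10 kb held the CRE in 0.463% of cases, and peaks outside genes at 1 to 10 kb in 0.617%. The CRE matches were under footprints in 39.1% and 43.5% of cases in members, in replicates 1 and 2. At the peaks within 1 kb the values were 67.7% and 74.7%. In the Per1 member the CRE lay under a footprint of replicate 2 only, and the glucocorticoid response element under none. Glucocorticoid response elements occurred in 10 members (0.241%), 0.125% of random windows and 0.173% of those matched on GC. Of their 10 matches in members, 0 lay under a footprint in either library. The same held for 9 matches in intronic peaks beyond 10 kb and 9 in peaks outside genes at 1 to 10 kb. At peaks within 1 kb, 1 of 15 matches lay under a footprint in each library.

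The GATA motif AGATAAG occurred in 1.88% of members, against 2.91% of random windows and 2.02% of those matched on GC. The NR4A motif AAAGGTCA, the site of the NGFI-B family, occurred in 0.987%, 1.13% and 0.928% of the same sets, and the TEAD motif ACATTCC in 3.01%, 2.58% and 2.48%. Over the 25 motifs with at least 20 matches in members, the median share of matches under footprints of both libraries was 9.42%. Of 80 GATA, 41 NR4A and 128 TEAD matches, 3, 4 and 4 lay under footprints of both, or 3.75%, 9.76% and 3.1%. The strongest such members were in Alox12 for GATA (1.10 in replicate 1 and 3.56 in replicate 2), in A930015D03Rik for NR4A (2.39 and 6.82) and in Anks6 for TEAD (2.04 and 6.63). All 3 of these windows also held a CTCF match with up to 1 mismatch. The GC-box GGGCGG of SP and KLF factors occurred in 15.2% of members, 2.35% of random windows, 7.79% of those matched on GC and 56.8% of peaks within 1 kb. The shares were 9.62% in intronic peaks beyond 10 kb and 16.9% in peaks outside genes at 1 to 10 kb. In CpG-rich members the GC-box occurred in 51.1%. None of the 32 motifs matched in 1191 members.

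**Figure D3:**
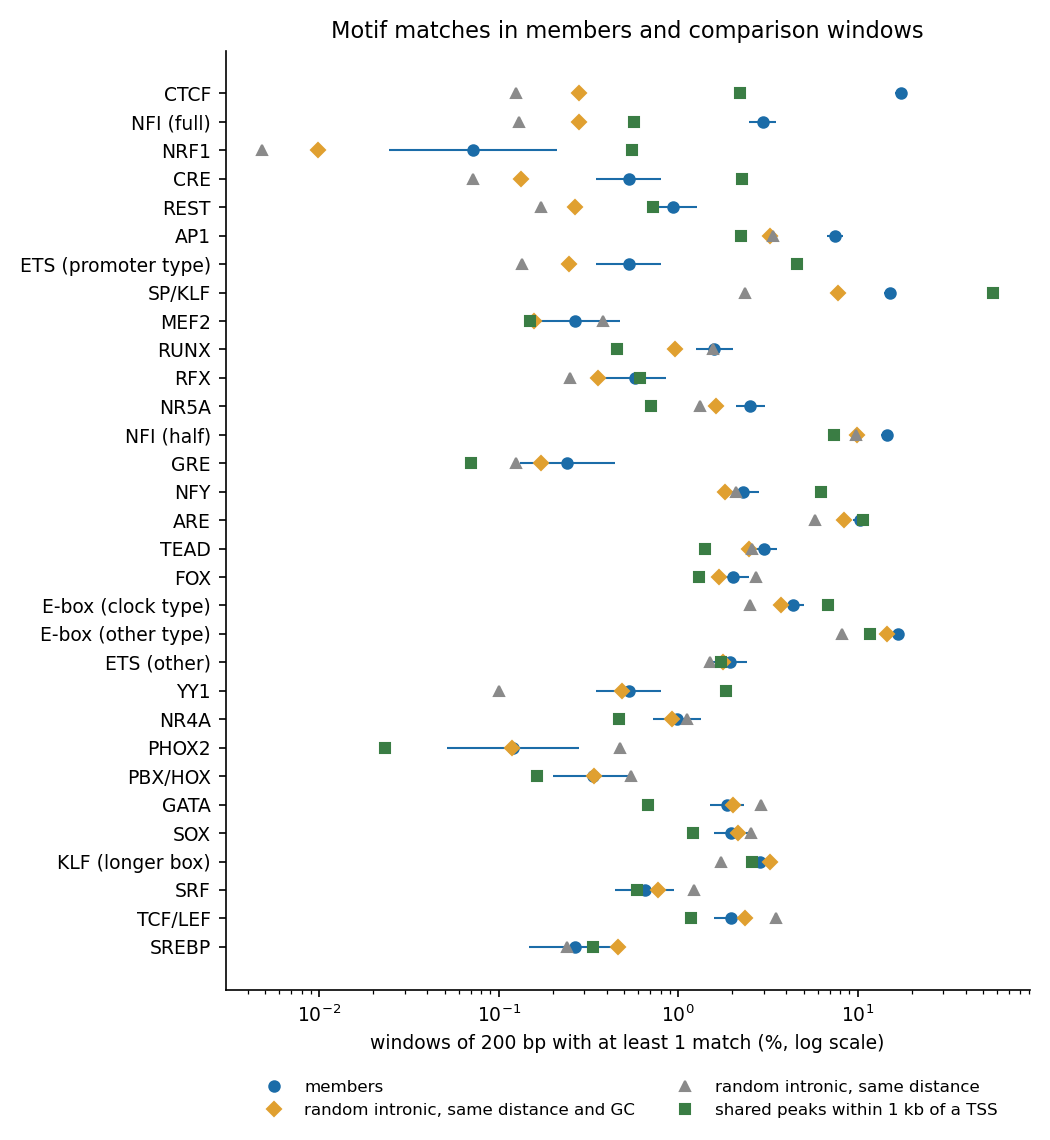
Percentage of 200 bp windows (log scale) with at least 1 match to each of 31 motifs, in members (circles, with Wilson 95% intervals), in random intronic windows at the same distance and GC (diamonds), in random intronic windows at the same distance (triangles) and in shared peaks within 1 kb of a TSS (squares), ordered by the ratio of members to the windows matched on GC. CTCF, at 17.3% of members and 0.282% of the matched windows, is at the top.

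**Figure D4:**
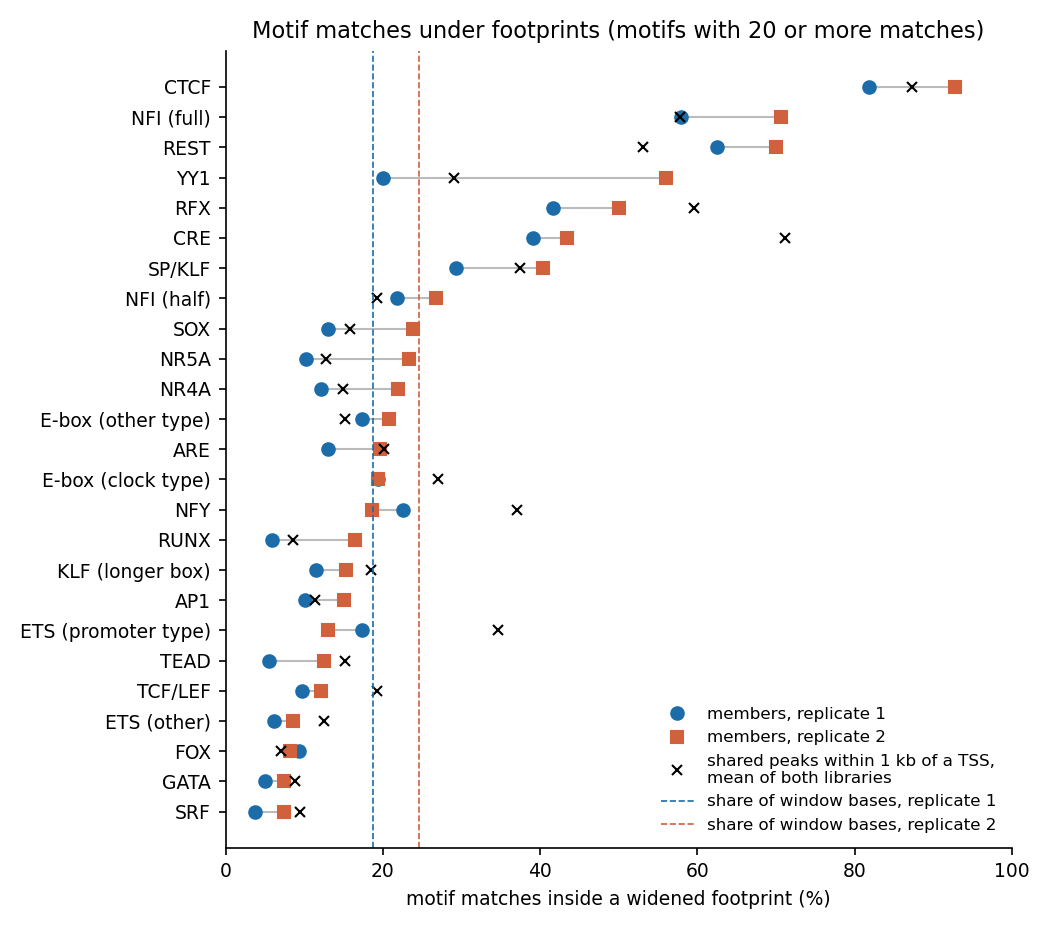
Percentage of motif matches that lie wholly inside a footprint widened by 5 bp, for motifs with at least 20 matches in members, in replicate 1 (circles) and replicate 2 (squares), with the mean of both libraries at shared peaks within 1 kb of a TSS (crosses). Dashed lines give the share of window bases under widened footprints, 18.8% and 24.7%, counted base by base. A whole match is harder to cover than a single base, so the lines are no expected value for matches. CTCF, NFI, REST, RFX, CRE and SP/KLF lie to the right of both lines in both libraries, and AP-1, GATA and TEAD to the left. A place to the left is not read as a lack of footprints.

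The members lay in 3090 host genes, of which 2385 held 1 member, 501 held 2 and 204 held 3 or more. Protein-coding genes held 85.2% of members, and 85.1% of random intronic positions at the same distances. First introns held 53.7% of members (52.1% to 55.2%) and 52.2% of random positions, so the share was within 2 percentage points of that of the sequence available. The nearest TSS was downstream-facing, with the member in its direction of transcription, for 62.1% of members and 60.1% of random positions. It belonged to the host gene for 73.5% of members and 70.1% of random positions.

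The promoter of the host, defined as the kb on either side of any of its TSSs, was open in both libraries for 81.9% of the 2594 protein-coding hosts. Among protein-coding genes with intronic sequence in range, 17.6% of those with an open promoter held a member and 7.43% of those without. Per Mb of that sequence the densities were 10.5 and 7.87 members, in the same order. Of members in protein-coding hosts 84.1% had a host with an open promoter, and of random positions 80.9%.

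The genes with the most members fell into 2 kinds. Gm20388, with 27 members, is an annotated gene that spans many others, and 0 of its members had a TSS of its own as the nearest. Their nearest TSSs were those of Foxc2, Foxl1, Mvd, Cox4i1 and other genes inside it. Fgfr2, a fibroblast growth factor receptor gene, held 9 members, of which 3 had an Fgfr2 TSS as the nearest, in an annotated span that likewise covers other genes.

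Nfic, one of the 4 NFI genes, held 17 members within 36.6 kb, at 45.6 members per 100 kb of intron in range. Several of them overlapped the same replicate 1 peak, as at chr10:81421581-81422040 and chr10:81433616-81434260. The count thus exceeds the number of separate replicate 1 peaks they overlapped. Signal of the 17 members lay between 0.290 and 1.89 in replicate 1 and between 0.290 and 3.55 in replicate 2. Of these, 12 lay below the median of all members in both libraries, and 8 were in the stricter peak lists of both. Footprints overlapped 11 of them in replicate 1 and 12 in replicate 2. None held the full NFI palindrome or a CTCF match, and 2 held AP-1. The other NFI genes held members as well, with 2 in Nfib, 1 in Nfia and 1 in Nfix. All 4 NFI genes thus hosted members, beside 14.1% of protein-coding genes with intronic sequence in range. Their density was 93.7 members per Mb of that sequence, against 9.94, but 17 of the 21 members were those in Nfic. The stronger Nfib member had 3.67 in replicate 1 and 8.67 in replicate 2.

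Sfi1 held 13 members within 44.1 kb, with signals of 1.25 to 3.27 in replicate 1 and 0.730 to 3.53 in replicate 2. Of the 13, 10 were higher in replicate 1, the reverse of most members. Sfi1 has near-identical copies in the mouse genome, so values there are uncertain. Gm49692 held 8 members within 4.67 kb, of which 4 were higher in replicate 1, with signals of 0.307 to 0.853 in replicate 1 and 0.334 to 0.897 in replicate 2. Tiam2 and 2900026A02Rik held 7 members each, and Galnt7 and Ppm1h 6 each.

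By gene list, 50% of the eligible circadian clock genes hosted a member (9 of 18, with 17 members), beside 14.1% of all eligible protein-coding genes. The lists were drawn up with earlier results of these data known. The hosts were Arntl, Npas2, Per1, Per2, Per3, Cry2, Nr1d1, Rora and Nfil3. Arntl encodes the activator BMAL1 and Npas2 a partner of it, while the Per and Cry proteins repress them. The density was 42.8 members per Mb, against 9.94 for all eligible protein-coding genes. Signal split the list: the members in Nr1d1, Per1 and one in Cry2 (2.46 in replicate 1 and 7.42 in replicate 2) lay above the median of all members in both libraries, and 12 of the 17 lay below it in both. The E-box CACGTG occurred in 3 of the 17 windows, those of Nr1d1 and Cry2 with 2 matches each and 1 in Arntl. Over all members this E-box occurred in 4.38% of windows, beside 3.76% of random windows matched on GC and 6.84% of peaks within 1 kb. With 17 windows the share in clock genes rests on few counts. In Nr1d1 and in Cry2, 1 of the 2 E-boxes lay under footprints of both libraries.

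Of 29 nuclear receptor and coregulator genes, 9 hosted 26 members. Rara, a retinoic acid receptor gene, held 5, with signals of 1.31 to 2.21 in replicate 1 and 2.43 to 3.47 in replicate 2, all above the medians of all members. Rxra, its partner, held 3, and Thra, a thyroid hormone receptor gene, held 1 with 2.07 and 4.49. Among 18 eligible genes of cAMP signalling 6 hosted 10 members, led by the phosphodiesterase gene Pde4d with 4. The strongest of this list was in Akap13, an anchoring protein gene, with 1.33 in replicate 1 and 3.25 in replicate 2, and it held a CTCF match. Of 17 eligible immediate early genes 1 hosted members, Nr4a2, an orphan nuclear receptor gene, with 2. Per Mb of intron in range there were 21.2 members for the nuclear receptor list, 10.3 for cAMP signalling and 13.1 for immediate early genes. All eligible protein-coding genes had 9.94. The shares of genes hosting were 31.0%, 33.3% and 5.88% in the same order, beside 14.1% of all eligible protein-coding genes. 

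Among 13 steroid synthesis genes, 3 hosted 1 member each. Cyp11a1, the enzyme of the first step from cholesterol, had 1.19 in replicate 1 and 1.94 in replicate 2. Fdxr, which feeds it electrons, had 1.88 and 4.71, and Por, the electron donor of microsomal P450 enzymes, had 1.21 and 2.12. None of these 3 windows held an NR5A match, which only 2.53% of all members held. Of 21 eligible cortex genes 6 hosted 7 members, the strongest in Axin2, a WNT target and inhibitor, with 1.71 and 4.99. Ctnnb1, which encodes β-catenin, had 0.921 and 2.63. Of 20 eligible medulla genes 5 hosted 6 members. The strongest was in Gata3, a factor of sympathoadrenal development, with 2.18 and 5.6, and the member in Th, which encodes the rate-limiting enzyme of catecholamine synthesis, had 1.42 and 3.41. Both members in Ddc, the next enzyme of that pathway, and the one in Th held CTCF matches. The hosting shares were 23.1% for steroid synthesis, 28.6% for cortex and 25% for medulla genes, beside 14.1% of all eligible protein-coding genes. Per Mb of intron in range there were 24.2, 14.5 and 18.8 members in the same order, against 9.94. These values rest on only 3, 7 and 6 members.

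Genes of other organs and of blood cells hosted members too. Of 11 kidney genes 4 did, Slc12a1, Slc12a3, Nphs1 and Slc34a1, with the strongest at 1.46 in replicate 1 and 3.26 in replicate 2. Of 11 liver genes 1 did, Hnf4a, a factor of liver and gut, with 2 members at 1.79 and 6.49, and 1.44 and 4.65. Of 12 leukocyte genes 1 did, Spi1, the PU.1 gene of myeloid cells, with 2.52 and 8.73. The promoters of Hnf4a, Spi1 and these 4 kidney genes were not open in both libraries. Of 19 genes of cholesterol supply and synthesis, all with open promoters, 2 hosted a member, and the cholesterol exporter gene Abca1 had 2.20 in replicate 1 and 6.30 in replicate 2. Of 11 capsule and fibroblast genes 3 did. Nr2f2, an orphan nuclear receptor gene, had 2.64 and 3.99, and the collagen gene Col4a1 had 1.45 and 4.98, so that their order differed between the libraries. Of 6 Schwann and neural crest genes 1 did, the neurotrophin receptor gene Ngfr, with 2.55 and 5.44. Of 13 endothelial genes 1 did, the adhesion molecule gene Pecam1, with 0.887 and 1.47. Over all eligible protein-coding genes the hosting share was 14.1%, beside 36.4% of kidney, 9.09% of liver and 8.33% of leukocyte genes. Per Mb of intron in range there were 23.9 members for kidney, 19.7 for liver, 8.29 for leukocyte and 6.11 for cholesterol genes. There were 16.6 for capsule and fibroblast, 25.5 for Schwann and neural crest and 3.79 for endothelial genes. Among 8 eligible housekeeping genes, 7 erythroid and 6 adipocyte genes, 0 hosted a member. Their intronic sequence in range was only 0.0449, 0.0404 and 0.193 Mb, in the same order. At the 9.94 members per Mb of all eligible protein-coding genes, few members or none fall in so little sequence.

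Promoters served as a check of the tissue label. Open in both libraries were the promoters of 6 of 13 steroid synthesis genes, 18 of 22 cortex genes and 17 of 22 medulla genes, beside 5 of 8 adipocyte, 6 of 14 endothelial, 5 of 11 capsule and fibroblast, 3 of 8 Schwann and neural crest, 3 of 9 erythroid, 2 of 12 leukocyte, 2 of 11 kidney and 1 of 11 liver genes. Over all eligible protein-coding genes 12056 of 18384 had an open promoter, a larger share than that of the steroid synthesis genes. The promoters of Nr5a1 and Cyp11a1 were open, and those of Star, Cyp11b1, Cyp11b2, Hsd3b1 and Mc2r, which mark steroid-making cells, were not by this measure. Of the medulla genes Chga and Phox2a were open, and Th, Dbh and Pnmt were not. The part of other cell types in the members was not tested.

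**Figure D5:**
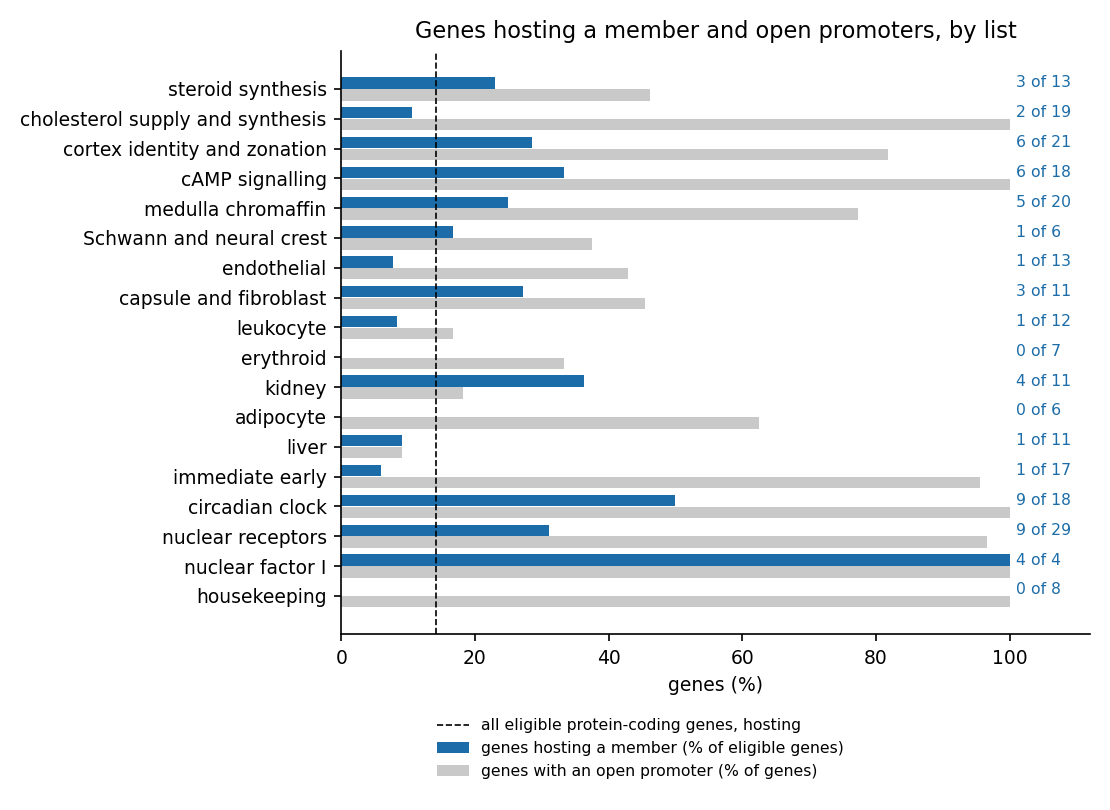
Percentage of genes in each of 18 lists that host a member, of the genes with intronic sequence in range (upper bars, with counts at the right), and percentage of genes with a promoter open in both libraries (lower bars). The dashed line gives the 14.1% of all eligible protein-coding genes that host a member. The circadian clock list reaches 50%. The housekeeping list, with all promoters open, has 0 of 8, in only 0.0449 Mb of intron in range.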

How the data were processed

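DNase-seq was analysed in 2 libraries of 1 group, so there was no comparison between groups, no test and no adjusted p-value. Members and gene lists were chosen with earlier results of these data known.

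Peaks, with 1 signal value each, were deposited per library on assembly mm10, per the labels and the deposited description files. The longer of 2 deposited peak lists per library was used, with 44573 peaks in replicate 1 and 84379 in replicate 2 on chromosomes 1 to 19. In the deposited false discovery rate files each position carries an adjusted p-value, with entries below 0.05 only. The deposited footprint lists carry 1 p-value of 0.01 throughout, read as a threshold. For the caller, signal scaling, filters and read depth, the sources used here give nothing, so the precision behind a single peak is unknown, and shares carry Wilson intervals at 95% for counting error only.

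Peaks shared at least 1 bp. Where several replicate 1 peaks overlapped a member, the one with the highest signal was used. Hosts were genes of GENCODE M21 over the centre, protein-coding ones first and then the one with the closest TSS. Random intronic positions (20780, 5 per member) were matched on distance in steps of 250 bp, and a second set (20248) on GC in steps of 5 percentage points as well. Windows of 200 bp were searched on both strands for 32 consensus motifs. Those under 10 letters were NR5A CAAGGTCA, NR4A AAAGGTCA, AP-1 TGAGTCA, CRE TGACGTCA, the shorter NFI motif TTGGCA, the GATA motif AGATAAG, TEAD ACATTCC, SP/KLF GGGCGG, KLF CCACACCC, ETS at promoters CCGGAAGT, other ETS CAGGAAGT, NFY CCAATCA, YY1 AAGATGGCG, clock E-box CACGTG, other E-box CAGCTG, FOX TGTTTAC, SOX ACAATGG, RUNX TGTGGTTT, PBX/HOX TGATTGAT, TCF/LEF ATCAAAG, SREBP TCACCCCAC, ARE TGACNNNGC, RFX GTTGCCATG and REST TTCAGCACC. CTCF, full NFI, NRF1, the glucocorticoid response element, MEF2, SRF, DR1 and PHOX2 were searched by degenerate consensus. The NR5A and NR4A motifs share their last 7 bases, and the shorter NFI motif lies in some full palindromes. A match is a description, not a binding site.

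The genes named are the 10 strongest members by their worse rank over both libraries, the 10 hosts with the most members, the hosts on the gene lists with values for the 2 strongest members of each, the 5 members with the most footprints, the strongest footprinted member of 8 motifs and the members at the distance limits. One host gene that the rule names is not reported here. Others are said to be chosen after their values were seen. Overlap, annotation and motif search were tested on simulated data. Python 3.11.15, numpy 2.4.6, pandas 2.3.3 and scipy 1.17.1 were used. Alternatives were a stricter peak list, a larger overlap, other TSS and distance limits, single libraries, other windows and other random positions. Nothing was left out but chromosomes X and Y and unplaced sequence, and chromosome 18 in picking the strongest footprinted members of 8 motifs.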

Additional observations from a re-analysis of the deposited data

How the results depend on the processing

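With the stricter peak lists there were 2067 members, within 5 kb 2722, and with a single library 4911 to 13450, against 4156. The larger overlap and protein-coding TSSs kept the count within 1.5 times. Footprint shares averaged 90.1% over both libraries, 96.5% with the stricter lists and 67.7% to 81.4% with a single library. First introns held 51.8% of members with the stricter lists, 51.7% with an overlap of 50% of both peaks, 56.0% with protein-coding TSSs, 59.8% within 5 kb and 44% with basic transcripts only. CTCF matches occurred in 21.2% of members with the stricter lists, 19.5% with the larger overlap and 7.96% to 14.8% with a single library, and in 43.9% with up to 1 mismatch, a setting chosen after seeing the data, against 2.01% of random windows. NR5A matches occurred in 1.84% with the stricter lists, and AP-1 in 6.24%. In windows of 100 bp the NR5A share was 1.42% of members and 0.645% of random windows, the AP-1 share 4.50% and 1.65%, and the CTCF share of random windows 0.0577%. Matched on GC, random windows held NR5A in 1.63% and CTCF in 0.282% of cases. The cause was not tested, beyond that fewer or more peaks enter and that a shorter window holds fewer bases. Random windows were drawn for the 200 bp and 100 bp windows, a second draw and the match on GC, and not for the other peak lists, overlaps, TSSs, distances or single libraries. With the stricter lists the NR5A share of 1.84% was close to the 1.63% of random windows matched on GC. The median signal, 1.47 as a mean of both libraries, was 2.14 with the stricter lists. Replicate 1 alone gave 0.827, against 0.908 for the members in that library. Replicate 2 alone gave 0.862, against 2.02 for the members in that library. The share of hosts with an open promoter lay between 80.5% and 82.5%. No paired analysis was possible because there is 1 group. Depth is not given, so a region missing from a library may be below its detection limit.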
